A study of Mus musculus with 10 samples.

Results

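The 8 genes described here are Cd274, Pdcd1lg2, Cd80, Cd86 and Icosl, which encode B7 family ligands, and Cd40, Cd83 and Fscn1, which with them mark mature dendritic cells. They were picked by gene name from a table of 54532 genes, and all 8 were present and had enough reads to be tested. The table covers regulatory T cells (Tregs) sorted as CD45, CD3, CD4, CD25 and GFP positive and sequenced after Smart-seq2, which amplifies whole cDNAs from small amounts of RNA. In the Tumor group (5 libraries) the cells came from colon tumours of Apc Min/+ Foxp3 DTR mice, and in the WT group (5 libraries) from Foxp3 DTR mice without that Apc allele, with colon as the labelled tissue. Apc Min is a truncating allele of a Wnt pathway inhibitor that gives rise to intestinal tumours, and Foxp3 DTR, carried by both groups, places a diphtheria toxin receptor under the Foxp3 gene, whose protein defines Tregs. All mice were C57BL/6 males aged 16 weeks. The labels do not say whether the libraries of a group came from separate animals or from pools, so p-values measure the spread between these libraries.

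B7 ligands are cell surface proteins of antigen-presenting cells that are read by receptors of the CD28 family on T cells. PD-L1 (Cd274) and PD-L2 (Pdcd1lg2) engage the inhibitory receptor PD-1, CD80 and CD86 engage both the activating receptor CD28 and the inhibitory receptor CTLA-4, and ICOSL engages ICOS. Tregs use CTLA-4 to strip CD80 and CD86 from dendritic cells. Mature dendritic cells, including the mature regulatory dendritic cells named in the study's title, combine these ligands with the receptor CD40, the surface protein CD83 and fascin (Fscn1), an actin-bundling protein. Activated T cells can themselves make several of these transcripts, CD83 and PD-L1 among them. Because the RNA came from bulk samples, fewer cells that carry a transcript and less of it per cell cannot be told apart.

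Cd274 and Pdcd1lg2 are neighbours on chromosome 19 (mm10), on the plus strand, with 22823 bases between the end of Cd274 and the start of Pdcd1lg2. Promoter windows of RefSeq (GRCm38.p6, from 250 bases before to 50 after the start) were found for 5 of the 8 genes, Cd274, Pdcd1lg2, Cd80, Icosl and Fscn1. The windows of the PD-1 ligand pair are shown because the results below turn on these neighbours. Cd274 lies at chr19:29367188-29367487 and Pdcd1lg2 at chr19:29410669-29410968, both read on the plus strand, 5′ to 3′, and capitals mark a motif match.
Cd274: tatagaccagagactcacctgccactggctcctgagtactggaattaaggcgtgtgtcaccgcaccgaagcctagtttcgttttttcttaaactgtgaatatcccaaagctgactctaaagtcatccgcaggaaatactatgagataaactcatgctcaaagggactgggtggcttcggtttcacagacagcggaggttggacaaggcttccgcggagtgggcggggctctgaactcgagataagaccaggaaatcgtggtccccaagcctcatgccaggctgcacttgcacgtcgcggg
Pdcd1lg2: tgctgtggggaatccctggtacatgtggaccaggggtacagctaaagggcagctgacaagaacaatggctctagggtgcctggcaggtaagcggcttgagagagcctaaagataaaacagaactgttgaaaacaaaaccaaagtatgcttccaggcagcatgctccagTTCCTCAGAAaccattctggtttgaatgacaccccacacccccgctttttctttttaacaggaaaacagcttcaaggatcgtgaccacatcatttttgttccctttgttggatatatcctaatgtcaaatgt

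The 4 motifs searched, on both strands, were TTC and GAA with 3 bases between them (the core of STAT dimer sites), TTC and GAA with 4 bases between them (the spacing that STAT6 favours), GAAA and GAAA with 2 bases between them (the core of interferon response elements) and GGGA and TTCC with 2 bases between them (a kappa B type site). Among all 32851 promoter windows in the table they occurred in 8.3%, 6.95%, 3.44% and 1.47%. The single match in the 5 windows was the STAT6 type motif in Pdcd1lg2, at bases 169 to 178 of the window, which reads the same motif on both strands and overlaps no other match. The GC content was 52.7% in the Cd274 window and 46.0% in that of Pdcd1lg2.

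The count per library summed to between 3054435 and 7747699 in Tumor, and between 1676229 and 8412887 in WT. Levels are given in CPM, read counts relative to library size, after scaling by the trimmed mean of M values (TMM), which assumes that most genes are alike between libraries. T cell transcripts differed in amount: the 14 pan-T genes summed to 3807 to 7760 CPM in Tumor and 215.8 to 1414 CPM in WT, and Foxp3 stood at 36.9 to 147.7 CPM in Tumor and 3.87 to 39.7 CPM in WT. Transcripts used as markers of other cell types were read too. The 12 macrophage and monocyte genes summed to 1461 to 6120 CPM in Tumor and 93.9 to 192.9 CPM in WT. Apoe and Lyz2 had the highest Tumor means of the 12 (1967 and 730.6 CPM). Lyz2, Apoe, C1qa, C1qb and C1qc were called higher by the edgeR test used below, 5 of 11 tested (1.37% of all genes). Adgre1, Mrc1 and Mertk did not follow, with log2 fold changes of 0.18, 0.18 and -0.63. The 15 epithelial genes reached 33100 and 39180 CPM in WT 1 and WT 2. They summed to 60.5 to 4439 CPM in Tumor and 188.2 to 312.5 CPM in WT 3 to 5. In WT 3, 4 and 5 the gene model Gm10800 took 9.92%, 22.3% and 26.5% of all counts (0.844 to 5.77% in the other 7 libraries). For these reasons the fold changes of the 8 genes are also given with libraries scaled to their pan-T genes, and where this moves them by much without WT 1 and 2 or without WT 3 to 5. The pan-T genes themselves lay near the background level explained below in WT 1 and 5. Their median there was 1.74 and 1.93 times that level, with 10 of 14 genes above it, against 36.6 to 129 times in Tumor. The part of stray reads in the pan-T scaling was not tested.

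Pdcd1lg2, the gene of PD-L2, rose in Tumor and was the single member of the 8 to pass the test. Its level was 25.0, 64.2, 69.8, 54.1 and 29.1 CPM in Tumor 1 to 5, against 4.21, 1.11, 2.82, 6.19 and 3.63 CPM in WT 1 to 5. The groups did not overlap: Tumor libraries held 89 reads of the gene or more, and WT libraries 18 or fewer. The means were 48.5 ± 20.4 CPM in Tumor and 3.59 ± 1.86 CPM in WT (SD, n = 5 each). The log2 fold change was 3.76 ± 0.64 (SE), and it passed edgeR's quasi-likelihood test (Benjamini-Hochberg adjusted p = 0.00728 over 21414 genes). Of all genes tested, 1.59% were called, 1.37% as higher in Tumor and 0.219% as lower. At an unadjusted p below 0.05, which 7.75% of all genes met as higher and 8.31% as lower, stood 3 of the 8 as higher (Pdcd1lg2, Cd86 and Cd274) and 1 as lower (Icosl). The gene (ENSMUSG00000016498, chromosome 19, 29410919 to 29471157, mm10) stayed called in each of the 10 fits that left out 1 library, with adjusted p from 0.00786 to 0.0382. With libraries scaled to their pan-T genes its log2 fold change was 0.41 ± 0.97 and no longer passed (adjusted p = 0.683).

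Cd274, the gene of PD-L1 (ENSMUSG00000016496, chromosome 19, 29367455 to 29388095), had a level of 24.5, 94.1, 69.96, 93.7 and 36.9 CPM in Tumor 1 to 5, against 9.13, 5.39, 0, 30.2 and 17.2 CPM in WT 1 to 5. The groups overlapped, since WT 4 lay above Tumor 1. WT 3 held no read of Cd274, which at its depth allows up to 1.41 CPM (3 counts). The means were 63.8 ± 32.1 CPM in Tumor and 12.4 ± 11.8 CPM in WT (SD, n = 5 each), and the log2 fold change of 2.37 ± 0.78 did not pass (SE, edgeR adjusted p = 0.146). Without WT 3, 4 and 5 it was 3.17, with an edgeR adjusted p of 0.00299, and with no filter on low counts it passed as well (adjusted p = 0.0284; the range over 20 alternatives was 0.00299 to 0.3998). With pan-T scaling the sign turned, to -0.82 ± 0.95 (adjusted p = 0.3998).

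The ratio of the 2 PD-1 ligands within a library does not depend on how libraries are scaled. Per base of gene length, the log2 ratio of Pdcd1lg2 to Cd274 was 1.17, 0.59, 1.14, 0.35 and 0.80 in Tumor 1 to 5, so PD-L2 reads outnumbered PD-L1 reads per length in all 5. In WT 1 to 5 it was 0.044, -1.08, 4.84, -1.12 and -1.04, the high value being that of WT 3, which had no Cd274 read (0.5 was added to each count). With the Cd274 count of WT 3 set to the floor of 3 its ratio was 2.25, still above every Tumor library, while the ratios of WT 1, 2, 4 and 5 lay below every Tumor library. The test turned on WT 3. On the ratios as listed, the WT mean was 0.33 ± 2.57 (SD, n = 5) and the groups did not differ beyond the spread. The exact permutation test gave p = 0.786 (2-sided, and 0.786 adjusted over 2 ratios), a value that rests on the 0.5 added to the 0 of WT 3. With that library at its floor the means were 0.81 ± 0.35 in Tumor and -0.19 ± 1.45 in WT (SD, n = 5 each) and did not differ beyond the spread (exact permutation test, 2-sided, p = 0.159, and 0.317 adjusted over 2 ratios). Without it the WT mean was -0.797 ± 0.56 (SD, n = 4), and the difference of 1.61 gave the smallest p that this exact permutation test allows (2-sided, p = 0.00794, and 0.0159 adjusted over 2 ratios). WT 3 held 6 reads of Pdcd1lg2 and 0 of Cd274. In WT 1, 2 and 5 both genes lay near the background level explained below. Cd274 was there at 1.10, 1.22 and 1.38 times that level and Pdcd1lg2 at 1.12, 0.552 and 0.641 times. The part of stray reads in the WT ratios was not tested. These settings, this ratio and that of Cd80 to Cd86 below were chosen after the values were seen.

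**Figure D1:**
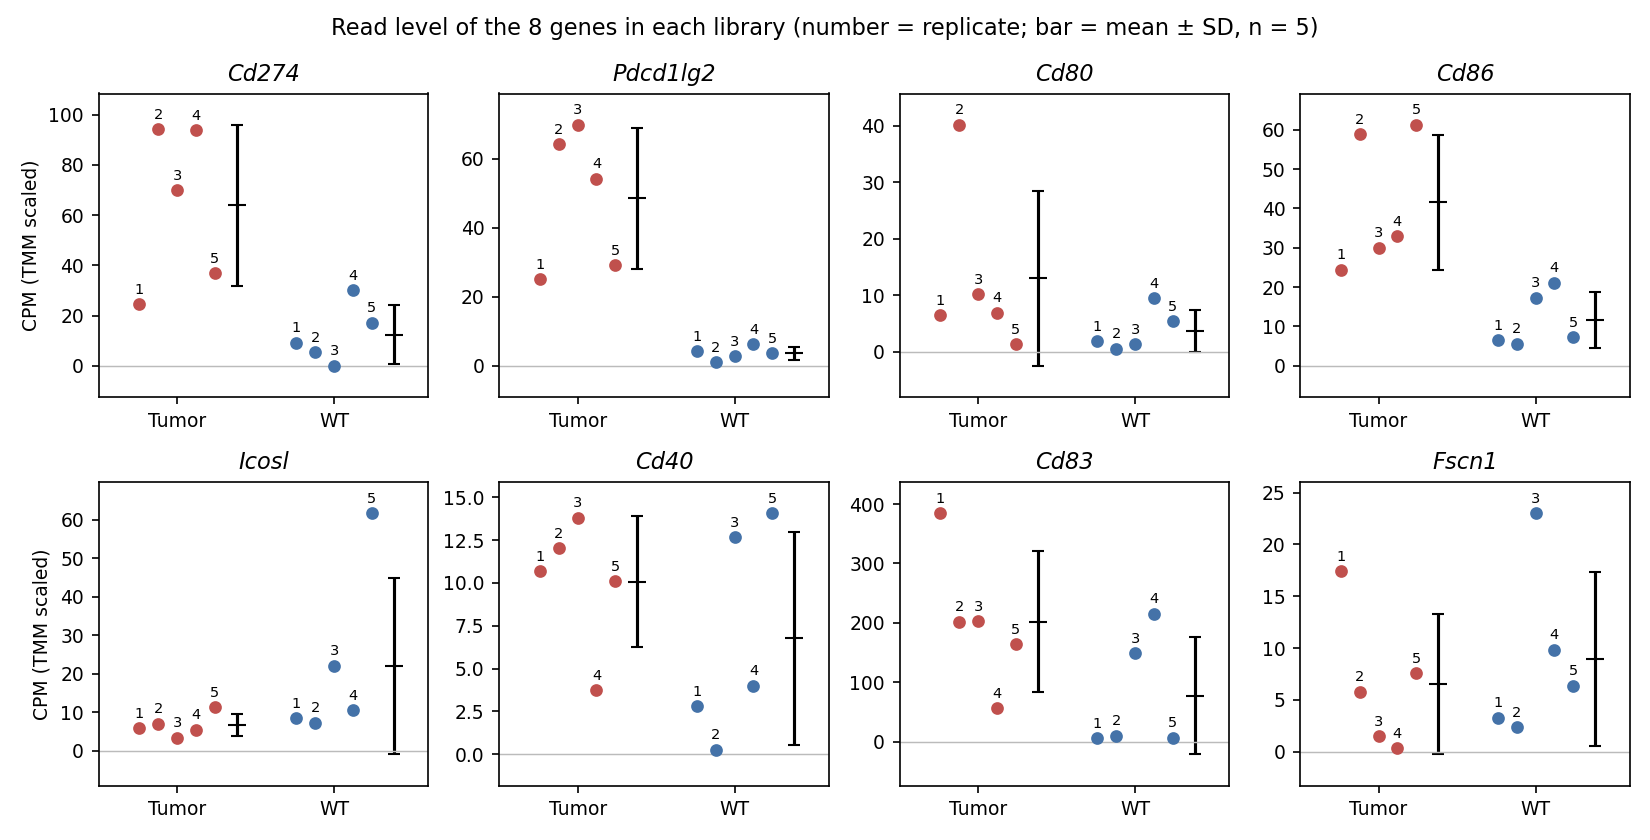
Level of each of the 8 genes (CPM, TMM scaled, linear axis) in the 5 Tumor libraries on the left and the 5 WT libraries on the right of each panel. Points are libraries with their replicate numbers, and the bars show mean ± SD; Pdcd1lg2 and Cd86 are the genes whose groups do not overlap.

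Cd86 was the other member whose groups did not overlap, a property of 4.38% of all tested genes in the direction of Tumor above WT. No member lay below WT in all Tumor libraries, as 1.57% of tested genes did. Its level was 24.5, 58.9, 30.0, 33.0 and 61.3 CPM in Tumor 1 to 5, against 6.55, 5.67, 17.4, 21.1 and 7.26 CPM in WT 1 to 5. CD86 is the B7 ligand that dendritic cells and macrophages already carry before activation. The log2 fold change of Cd86 (ENSMUSG00000022901, chromosome 16, 36603869 to 36666081) was 1.85 ± 0.59 and did not pass (SE, edgeR adjusted p = 0.1297). It passed without WT 3, 4 and 5 (2.76, edgeR adjusted p = 0.0159, where 20 alternatives ranged from 0.0159 to 0.2856) and turned to -0.98 ± 0.86 with pan-T scaling (adjusted p = 0.271). The Tumor libraries with the highest Cd86, Tumor 2 and 5, also had the highest sums of the 12 macrophage and monocyte genes, 6120 and 5527 CPM, where Tumor 1, 3 and 4 had 1461, 1821 and 2067 CPM. In WT these sums were 131.7, 192.9, 127.7, 191.8 and 93.9 CPM in replicates 1 to 5. Of the 12, 9 to 12 lay above the background level explained below in Tumor and 4 to 10 in WT, and Apoe and C1qa were at 0 in WT 3. The part of macrophage RNA in the values of Cd86 and of the other members was not tested.

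Cd80, the gene of the other ligand of CD28 and CTLA-4 (ENSMUSG00000075122, chromosome 16, 38455561 to 38496335), had few reads, between 6 and 97 in a Tumor library and between 3 and 26 in a WT library. Its level was 6.46, 40.2, 10.2, 6.92 and 1.38 CPM in Tumor 1 to 5, against 1.87, 0.553, 1.41, 9.46 and 5.44 CPM in WT 1 to 5. The groups overlapped and Tumor 2 stood far above the rest. The log2 fold change of 1.80 ± 1.01 did not pass (SE, edgeR adjusted p = 0.386) and was 0.74 without Tumor 2 (edgeR adjusted p = 0.772). Without WT 3, 4 and 5 it was 3.48, which did not pass either (edgeR adjusted p = 0.265). With pan-T scaling it was -1.32 ± 1.11. The log2 ratio of Cd80 to Cd86 per gene length averaged -2.34 ± 1.82 in Tumor and -1.9995 ± 1.31 in WT (SD, n = 5 each), with no distinguishable difference (exact permutation test, 2-sided, p = 0.778, and 0.786 adjusted over 2 ratios).

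Icosl, the gene of the ligand of ICOS (ENSMUSG00000000732, chromosome 10, 78069302 to 78083913), ran the other way. Its level was 5.90, 7.05, 3.41, 5.50 and 11.2 CPM in Tumor 1 to 5, against 8.42, 7.32, 22.1, 10.6 and 61.7 CPM in WT 1 to 5. Tumor 5 lay above WT 1, 2 and 4, so the groups overlapped, and WT 5 stood apart at the top. The log2 fold change was -1.72 ± 0.76 and did not pass (SE, edgeR adjusted p = 0.274, unadjusted p = 0.0351). Without WT 5 it was -0.86 and without WT 3, 4 and 5 it was -0.24 (edgeR adjusted p = 0.688 and 0.9996). With pan-T scaling, which moves most genes downward, Icosl was called lower at -4.90 ± 1.003 (edgeR adjusted p = 0.0008).

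Cd83 had the most reads of the 8 genes and, relative to its mean, the largest SD of the 8 among WT libraries (127.8% of the mean). Its level was 384.4, 202.2, 202.9, 56.1 and 164.3 CPM in Tumor 1 to 5, against 5.62, 9.67, 148.8, 215.5 and 6.35 CPM in WT 1 to 5. WT 3 and 4 thus reached Tumor levels while WT 1, 2 and 5 lay below every Tumor library. The log2 fold change of Cd83 (ENSMUSG00000015396, chromosome 13, 43784775 to 43803132) was 1.39 ± 0.90 and did not pass (SE, edgeR adjusted p = 0.453). Without WT 3, 4 and 5 it was 4.69 with an edgeR adjusted p of 5.39e-05 (range over 20 alternatives 5.39e-05 to 0.6587), and without WT 1 and 2 it was 0.70 (adjusted p = 0.634). Pan-T scaling gave -0.84 ± 0.80 (adjusted p = 0.316). CD83 stabilises MHC class II and CD86 at the surface of dendritic cells.

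Cd40 and Fscn1 stayed low in both groups. Cd40, whose product on dendritic cells and B cells receives the CD40 ligand signal of T cells (ENSMUSG00000017652, chromosome 2, 165055627 to 165072948), had a level of 10.7, 12.02, 13.8, 3.73 and 10.1 CPM in Tumor 1 to 5, against 2.81, 0.276, 12.7, 4.003 and 14.1 CPM in WT 1 to 5. WT 3 and 5 were as high as the higher Tumor libraries, and the log2 fold change of 0.59 ± 0.92 did not pass (SE, edgeR adjusted p = 0.778). For Cd40 it was 2.81 without WT 3, 4 and 5 and 0.032 without WT 1 and 2, and passed in neither case (edgeR adjusted p = 0.483 and 0.989). Fscn1 (ENSMUSG00000029581, chromosome 5, 142960343 to 142973185) had 17.4, 5.80, 1.46, 0.355 and 7.57 CPM in Tumor 1 to 5, against 3.28, 2.35, 23.0, 9.83 and 6.35 CPM in WT 1 to 5. Its groups overlapped, with Tumor 3 and 4 below every WT library and WT 3 above every Tumor library, and its log2 fold change of -0.45 ± 0.99 did not pass either (SE, edgeR adjusted p = 0.8496). With pan-T scaling Cd40 and Fscn1 were called lower, at -2.57 ± 1.11 and -3.13 ± 1.15 (edgeR adjusted p = 0.0336 and 0.0158). Without WT 3 the log2 fold change of Fscn1 was 0.29, and without WT 3, 4 and 5 it was 1.24.

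**Figure D2:**
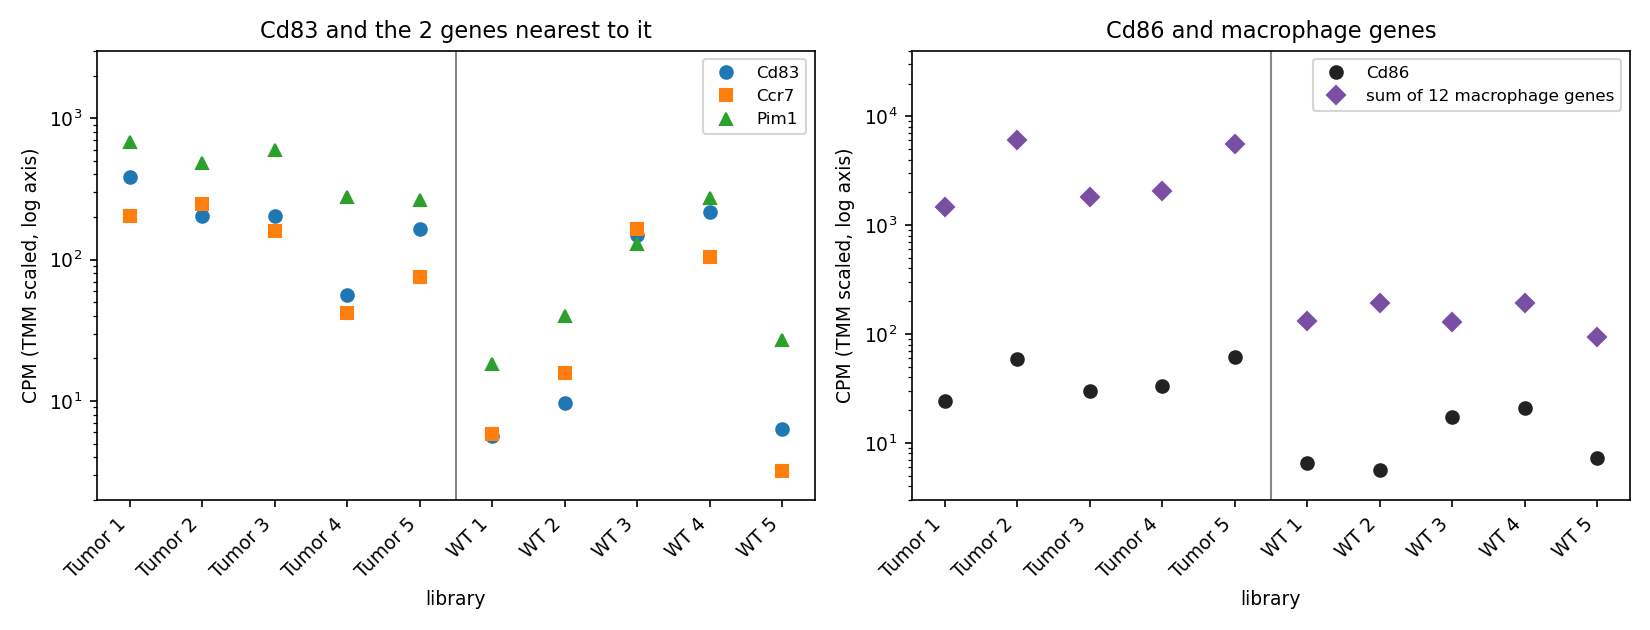
Left, CPM (TMM scaled, log axis) of Cd83 and of the 2 genes with the nearest profile, Ccr7 and Pim1, in the 5 Tumor and 5 WT libraries. Right, Cd86 beside the summed CPM of 12 macrophage and monocyte genes on the same kind of axis; Cd83 and Ccr7 are high in WT 3 and 4 and low in WT 1, 2 and 5.

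Levels of different genes can be compared per length of gene. In Tumor the order, in CPM per kilobase, was Cd83 (78.5 ± 46.0), Pdcd1lg2 (29.5 ± 12.4), Cd274 (17.6 ± 8.86), Cd86 (11.3 ± 4.70), Cd80 (3.52 ± 4.19), Cd40 (2.96 ± 1.12), Fscn1 (2.17 ± 2.25) and Icosl (1.43 ± 0.63) (SD, n = 5). Neighbours in this order differed by more than the larger of their SDs at 2 steps, between Cd83 and Pdcd1lg2 and between Cd86 and Cd80. In WT the order in CPM per kilobase was Cd83 (30.0 ± 38.4), Icosl (4.76 ± 4.97), Cd274 (3.42 ± 3.25), Cd86 (3.17 ± 1.95), Fscn1 (2.98 ± 2.78), Pdcd1lg2 (2.18 ± 1.13), Cd40 (1.99 ± 1.82) and Cd80 (1.01 ± 0.999) (SD, n = 5), and there no neighbours differed by more than the larger of their SDs. Pdcd1lg2 stood in the second place in Tumor and in the sixth in WT.

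A yardstick for such low levels is the level of 1464 receptor genes of smell and pheromone sensing (olfactory and vomeronasal), with no known use in T cells, at 1.05 to 2.02 CPM per kilobase in Tumor and 1.22 to 4.19 in WT. Pdcd1lg2 was at 7.56 to 40.4 times this level in Tumor and at 0.408 to 1.65 times in WT, and Cd86 at 3.32 to 9.92 times in Tumor and 0.576 to 2.52 times in WT. Cd274 was at 3.36 to 19.1 times in Tumor, and in WT at 0 to 3.65 times. Cd83 stood at 16.1 to 75.0 times in Tumor, and in WT at 13.8 and 36.7 times in WT 3 and 4 but 0.718 to 3.09 times in WT 1, 2 and 5. Icosl stayed at 0.635 to 1.21 times in Tumor and at 0.796 to 1.30 times in WT 1 to 4, with WT 5 at 3.88 times. Thus the WT reads of Pdcd1lg2, and the Tumor reads of Icosl, lay near the level of genes not known to be in use. The part of stray reads in these values was not tested. A median over the 8 genes was 3.1 to 8.31 times the receptor gene level in Tumor libraries and 0.679 to 1.54 times in WT libraries.

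**Figure D3:**
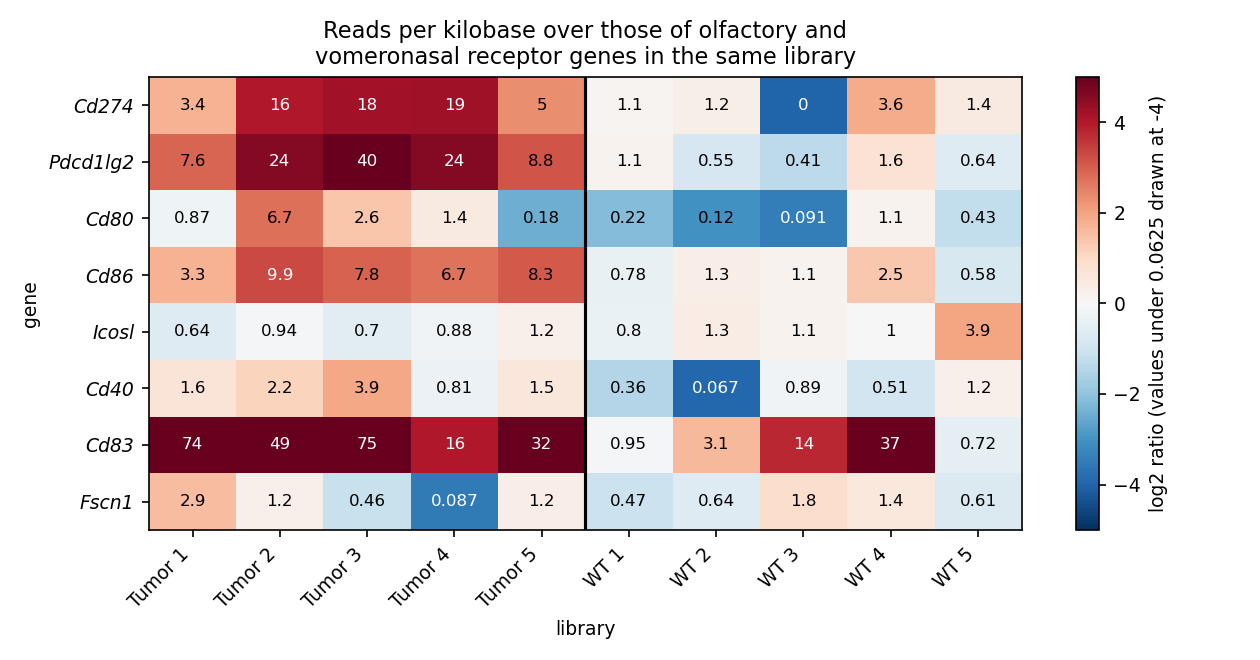
Reads per kilobase of each of the 8 genes divided by reads per kilobase of 1464 olfactory and vomeronasal receptor genes in the same library, with Tumor libraries left of the black line and WT libraries right of it. Numbers in the cells are the ratios and colour is their log2; Pdcd1lg2 is above 7 in every Tumor library and below 2 in every WT library.

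Across the 8 genes the median log2 fold change was 1.59, with 6 of 8 positive, where all tested genes had a median of -0.20 and 43.8% were positive. Pan-T scaling moved the median of all tested genes to -3.46 and that of the 8 genes to -1.15. Measured from the median of all genes on each scaling, Pdcd1lg2 was 3.96 above on TMM and 3.87 above with pan-T scaling, Cd274 2.56 and 2.63, Cd86 2.04 and 2.48, and Icosl -1.53 and -1.44. Cd80 was 1.996 above on TMM and 2.14 above with pan-T scaling, Cd40 0.79 and 0.89, and Cd83 1.59 and 2.62, while Fscn1 lay below that median on TMM (-0.25) and above it with pan-T scaling (0.33). A change of scaling moves most genes by a similar amount, which subtracting the median removes. Near agreement within these pairs is therefore largely built in and is no separate support. The sign of the fold change itself depended on the scaling for every positive member but Pdcd1lg2.

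**Figure D4:**
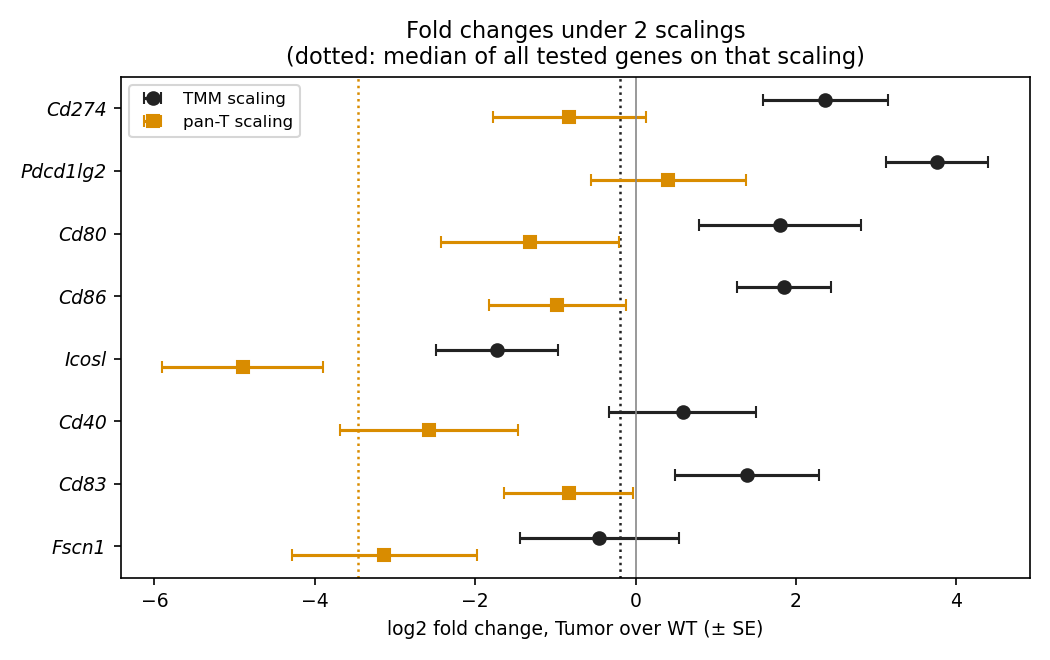
Log2 fold change of Tumor over WT (± SE) for the 8 genes with TMM scaling (black circles) and with libraries scaled to their 14 pan-T genes (orange squares). Dotted lines mark the median of all tested genes, -0.20 with TMM and -3.46 with pan-T scaling.

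Genes of receptors that read these ligands, and of CD40 ligand, were Cd28, Ctla4, Icos, Pdcd1, Cd40lg and Rgmb, which encodes another partner of PD-L2. Of these 1 of 6 rose (1.37% of all genes), and their median log2 fold change was 3.02 (0.37 with pan-T scaling). Only Rgmb had a negative log2 fold change, -1.81 ± 0.90 (SE, edgeR adjusted p = 0.332). With pan-T scaling Rgmb was called lower, at -5.26 (edgeR adjusted p = 0.000944). At an unadjusted p below 0.05, 5 of the 6 were higher (7.75% of all genes), and in 3 of the 6 the Tumor libraries all lay above the WT libraries (4.38% of all genes). The gene called was Pdcd1, the receptor of both PD-L1 and PD-L2, at 198.4 to 376.7 CPM in Tumor and 0 to 22.6 CPM in WT (log2 fold change 5.27 ± 0.90, edgeR adjusted p = 0.00728, and 2.40 with adjusted p = 0.0113 after pan-T scaling). Other B7 and butyrophilin genes (Cd276, Vtcn1, Vsir, Btn1a1, Btn2a2, Btnl2 and Btnl9) gave 0 calls among 7, with 1 gene higher and 1 lower at an unadjusted p below 0.05 and a median of -0.60. DESeq2 called 1 of them lower, and with pan-T scaling 5 were called lower, as were 19029 of the 21414 genes tested. The most abundant were Vsir, the gene of the inhibitory ligand VISTA, at 171.1 ± 71.1 CPM in Tumor and 50.1 ± 48.3 CPM in WT (SD, n = 5; log2 fold change 1.77 ± 0.64, edgeR adjusted p = 0.188), and Btnl9, at 11.6 ± 7.12 CPM in Tumor and 27.3 ± 14.3 CPM in WT (-1.22 ± 0.63, adjusted p = 0.351). With pan-T scaling Vsir was at -1.16 (edgeR adjusted p = 0.116) and Btnl9 at -4.16 (0.000845).

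Further mature dendritic cell genes were followed in a pair of lists. The list that T cells use little held Lamp3, Ccl17, Ccl22, Il12b, Aldh1a2, Cacnb3, Slco5a1, Il4i1 and Tmem150c, of which 8 were tested and 0 called by edgeR (1 higher and 1 lower at an unadjusted p below 0.05, and 1 called higher by DESeq2). Its summed level was 44.96 to 172.8 CPM in Tumor and 56.3 to 225.0 CPM in WT, and the median gene lay at 0.305 to 1.12 times the receptor gene level in Tumor and 0.213 to 0.75 times in WT. Its median log2 fold change was 0.57 (-3.12 with pan-T scaling), with 5 of 8 positive (43.8% of all genes). In Tumor the highest mean of the list was that of Ccl22, at 26.6 CPM. By mean CPM over all 10 libraries its most abundant genes were Slco5a1, a transporter of the organic anion family, and Cacnb3, a calcium channel subunit. Their log2 fold changes were -2.02 ± 0.89 and -1.07 ± 0.79 (SE, edgeR adjusted p = 0.274 and 0.516). With pan-T scaling these were -5.22 and -4.85 (edgeR adjusted p = 0.000923 and 0.00083), and 5 genes of the list were called lower. Slco5a1 stood at 170.1 CPM in WT 5, against 5.11 to 28.8 CPM in WT 1 to 4 and 1.66 to 22.7 CPM in Tumor. WT 5 was also the library with the list's highest sum. General dendritic cell markers (Flt3, Zbtb46, Itgax, Xcr1, Clec9a, Cd209a, Clec10a, Cd207, Siglech, Wdfy4 and Naaa) summed to 114.1 to 273.7 CPM in Tumor and 87.2 to 331.4 CPM in WT, with 0 of 10 tested called by edgeR (2 higher and 0 lower at an unadjusted p below 0.05), and 7 called lower with pan-T scaling. The 2 higher were Itgax and Xcr1, with log2 fold changes of 1.98 ± 0.74 and 2.39 ± 0.87 (SE, edgeR adjusted p = 0.201 and 0.188). With pan-T scaling they were at -0.98 and -0.997. Cd209a, which was not tested, was at 0 reads in Tumor 1, 2 and 5. At its highest in Tumor it reached 148 reads and 26.3 CPM, against 10.6 CPM at its highest in WT.

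Ccl22, a chemokine gene of mature dendritic cells, differed widely between libraries and is named after its values were seen. Its level was 88.8, 1.24, 8.12, 34.6 and 0.229 CPM in Tumor 1 to 5, against 6.32, 1.66, 0.939, 2.91 and 4.54 CPM in WT 1 to 5. Tumor 1 and 4 were the high libraries, and they were not those with the most Pdcd1lg2. Tumor 1 was also the library with the most Cd83 and, among Tumor libraries, the most Fscn1. Tumor 4 went the other way, with the least Cd83 and Fscn1 among Tumor libraries (56.1 and 0.355 CPM).

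The list of mature dendritic cell genes that T cells also use held 13 genes, all tested. Of these 3 rose and 0 fell (1.37% and 0.219% of all genes), and the median log2 fold change was 1.65 (-1.14 with pan-T scaling). At an unadjusted p below 0.05, 9 of the 13 were higher (7.75% of all genes). In 7 of the 13 the Tumor libraries all lay above the WT libraries (4.38% of all genes). The 3 that rose were Samsn1, a signalling adaptor (3.15 ± 0.76, edgeR adjusted p = 0.0418), Adam8, a membrane protease (2.22 ± 0.48, 0.0255), and Nfkb2, a subunit of the non-canonical NF-kappaB pathway (2.15 ± 0.52, 0.0413). None of these passed with pan-T scaling, where they were at 0.55, -0.94 and -1.09, and 4 other genes of the list were called lower and 0 higher. Among 7 signalling genes below CD40, the adaptor gene Traf2 (2.52 ± 0.62, edgeR adjusted p = 0.0453) and the ubiquitin ligase gene Birc2 (2.56 ± 0.62, 0.0411) rose, at -0.73 and -0.55 with pan-T scaling. These were 2 of 7 (1.37% of all genes), and 3 of 7 were higher at an unadjusted p below 0.05 (7.75% of all genes). Calls in these 2 lists did not hold up to leaving out single libraries, with counts from 0 to 4 and from 0 to 2.

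Each gene's profile over the 10 libraries was set against 12161 protein coding genes by the root mean square difference of log2(CPM + 1) after removing each gene's own mean. A profile includes the difference between the groups, so genes near a member share its change by the way they were chosen. Nearest to Pdcd1lg2 were Emp3, a membrane protein gene, and Slc15a3, a peptide and histidine transporter gene (0.44 each, where the median over all candidates was 1.98). Both rose, with log2 fold changes of 3.54 and 3.73 (edgeR adjusted p = 0.00612 each). St3gal2 and Hsd11b1 were nearest to Cd274 (0.57 and 0.60, median 2.08), and Cry1 and Fcho1 to Cd86 (0.44 and 0.46, median 1.49). Of these Hsd11b1 and Fcho1 rose, with log2 fold changes of 2.45 and 2.04 (edgeR adjusted p = 0.0449 and 0.0387). For Cd80 the nearest were the interferon-induced GTPase gene Gbp2b and Rai1 (0.46 and 0.60, median 1.70). Gbp2b was at 39.4 CPM in Tumor 2 and 26.2 CPM in WT 4, the libraries that led their groups for Cd80 too.

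Cd83 had as its nearest profiles the chemokine receptor gene Ccr7, which guides dendritic cells and naive T cells to lymph nodes, and the kinase gene Pim1 (0.58 and 0.75, median 2.38). Ccr7 was at 204.0, 247.4, 159.4, 42.2 and 75.5 CPM in Tumor 1 to 5, against 5.85, 15.8, 164.8, 105.2 and 3.18 CPM in WT 1 to 5. Like Cd83 it was high in WT 3 and 4 and low in WT 1, 2 and 5. Icosl was nearest to Loxl3 and Iqgap3 (0.29 and 0.33, median 1.56), and Loxl3 too was highest in WT 5, at 54.0 CPM. The nearest to Cd40 were Hdgfl2 and Arl5c (0.35 and 0.42, median 1.58), and to Fscn1 Wdr95 and Sel1l2 (0.44 and 0.48, median 1.70).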

How the data were processed

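The authors deposited raw read counts per gene, whole numbers that were not normalized, with gene names, mm10 coordinates and lengths. Reads were handled with featureCounts 1.5.0-p3 and HISAT2 2.0.5, per the submitters' processing notes. Strandedness, multi-mapping and the annotation version are not given in the sources used here. No other gene in the table overlaps any of the 8. The 10 single-library count files equal the table. All 45 pairs of libraries differed by more than sampling noise, with chi-square over its degrees of freedom at 25.7 or above. Reads carry no molecular identifiers, so a floor of 3 counts covers counting error only.

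In R 4.3.3, edgeR 4.0.16 kept 21414 genes by filterByExpr (minimum count 10, minimum total 15) and fitted a robust quasi-likelihood model with group as the only term after TMM scaling. P-values were adjusted by Benjamini-Hochberg over all of them and called below 0.05. A standard error is the log2 fold change divided by the square root of F. The procedure was tested on simulated data. Pan-T scaling divides each library by the geometric mean of 14 pan-T genes (0.5 added). Alternatives used DESeq2 1.42.0 and limma voom 3.58.1, other scalings and filters, a replicate block, and libraries left out. The members and lists were chosen with earlier results of these data known. Genes named are the 8 members, the called genes of each list or else its 2 most abundant, and the 2 nearest profiles per member; the result of a further called gene is not reported here.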

Additional observations from a re-analysis of the deposited data

Results flagged for a closer look

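Of 16 groups of 5 libraries (8 genes in Tumor and in WT), 2 had a library far from the others by Dixon's test. For normally distributed values chance gives this in about 1 of 20 groups. Whether these CPM values are so distributed was not tested, so their chance rate is not known. Cd80 stood at 40.2 CPM in Tumor 2, where the next Tumor library was at 10.2 CPM. Icosl stood at 61.7 CPM in WT 5, where the next WT library was at 22.1 CPM.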

How the results depend on the processing

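Of the 20 alternatives, 17 left the count of members called at 1, and Pdcd1lg2 kept its call in 19, losing it with pan-T scaling. With that scaling 19052 genes were called (23 higher) in place of 340, and 3 members, 2 receptors, 5 other B7 genes, 5 mature dendritic cell genes little used by T cells, 4 shared ones (all lower), 4 of 8 genes of the PD-L1 route (signalling genes that induce PD-L1, and its protein partners) and 4 of the CD40 route. The log2 fold changes of Cd274, Cd80, Cd86, Cd40 and Cd83 then turned to -0.82, -1.32, -0.98, -2.57 and -0.84. Without WT 3, 4 and 5, 1325 genes, 4 members, 5 receptors, 1 other B7 gene, 7 shared mature dendritic cell genes and 4 of the PD-L1 route were called, and Fscn1 turned to 1.24. Without WT 1 and 2 the counts were 1993 genes, 3 receptors, 1 mature dendritic cell gene (lower) and 3 of the PD-L1 route. DESeq2 called 1637 genes, 4 receptors, 1 other B7 gene, 1 and 6 genes of the mature dendritic cell lists and 2 of the PD-L1 route. With no filter 820 genes, 2 members, 3 receptors, 1 mature dendritic cell gene and 2 of the PD-L1 route were called, and limma voom called 3 receptors. Shared mature dendritic cell calls numbered 1 with RLE scaling, 1 with the filter of 10 CPM and 0 with library totals, and RLE left 0 in the CD40 route. Leaving out single libraries gave 65 to 417 genes, 1 member throughout, 1 to 2 receptors, 0 to 1 other B7 genes, 0 to 4 shared genes, 0 to 2 in the PD-L1 route and 0 to 2 in the CD40 route, and put Fscn1 between -1.26 and 0.29, positive without WT 3. The cause of these changes was not tested.

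With the replicate number as a block 141 genes were called, with 0 shared mature dendritic cell genes, 0 in the PD-L1 route and 0 in the CD40 route, and Pdcd1lg2 passed (adjusted p = 0.0390). Deviations of same-numbered libraries correlated at -0.14 to 0.040, and no Tumor library correlated best with its own number, so no pairing by number was seen. Whether same-numbered libraries shared a batch cannot be told from these correlations. Depth limits Cd80, Cd40 and Fscn1, with as few as 6, 21 and 2 reads in a Tumor library and 3, 2 and 14 in a WT library.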
